A study of Mus musculus with 6 samples.

Results

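Activator protein 1 (AP-1) is a transcription factor built from pairs of basic leucine zipper proteins, and the 9 genes described here encode its main subunits: *Fos*, *Fosb*, *Fosl1* and *Fosl2* of the FOS family, *Jun*, *Junb* and *Jund* of the JUN family, and *Atf3* and *Batf*. They were taken from an Illumina mouse bead array as every probe that carries one of these symbols, which gave 13 probes of 45281 on the array, or 9 of its 31508 gene symbols. *Jund* was found under its older symbol *Jund1*. Of the 13 probes, 9 had signal above background (detection p under 0.05) in 3 or more of the 6 samples and were tested, among 16214 tested probes in all. The tested probes stood for 8 of the genes, and *Jund* was not tested.

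The arrays measured RNA from *ex vivo* cortical bone tubes, the shafts of tibia and femur of C57BL6 mice, flushed to clear the marrow and digested with collagenase and trypsin to strip cells off the bone surfaces. The labels name no mutation or transgene in either group. Bone tubes in both groups were first cultured overnight in medium with serum, and after a change of medium they were kept for 24 hours without hormone (Ctr, control) or with 250 nM Pth 1-34, a fragment of parathyroid hormone (PTH). The labels give an age of 3 months and the methods a range of 2 to 3 months, and bones of 4 to 5 mice were pooled per experiment. There were 3 control and 3 PTH arrays. Whether the replicates were separate experiments is not stated for each array, so the p-values measure the spread between these preparations, which may be technical in part.

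FOS proteins bind DNA only with a partner, usually a JUN protein, whereas JUN proteins can also pair with each other. FOS–JUN pairs bind the TPA response element, and pairs that contain an ATF protein prefer the cAMP response element (CRE). PTH acts on osteoblasts and osteocytes through a receptor that raises cAMP, and cAMP activates the CRE-binding protein CREB, which drives *Fos* transcription within minutes. In bone, *Fos* is required for osteoclast formation, FOSL1 and FOSL2 raise bone mass when overproduced in mice, and AP-1 takes part in the induction of the collagenase gene *Mmp13* by PTH. ATF3 is a stress-induced member that often represses its targets, and BATF is a member best known from lymphocytes that lacks a transactivation domain. *Fos*, *Jun* and *Atf3* are immediate-early genes, whose mRNA usually peaks and falls long before the time at which these bone tubes were frozen.

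The start-site regions show which members carry sequences that cAMP signaling is known to use. The RefSeq table of mouse assembly GRCm38.p6 held a window of 300 bases, from 250 before to 50 after the start of the gene, for 8 of the 9 genes, and *Fosl1* had no entry. The 120 bases before the start are printed for the members with the largest differences, *Fos* and *Atf3*, and for *Jun*, the main partner of *Fos*. They lie at chr12:85473770-85473889 on the plus strand for *Fos*, at chr4:95052223-95052342 on the minus strand for *Jun* and at chr1:191183334-191183453 on the minus strand for *Atf3*. Each is written 5′ to 3′ on the strand of the gene and ends at the base before the start. Capitals mark matches to the motifs searched.
Fos: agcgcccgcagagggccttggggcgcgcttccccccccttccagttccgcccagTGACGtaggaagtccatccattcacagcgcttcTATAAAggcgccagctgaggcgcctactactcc
Jun: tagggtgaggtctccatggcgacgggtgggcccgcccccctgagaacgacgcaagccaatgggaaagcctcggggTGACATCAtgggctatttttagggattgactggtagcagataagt
Atf3: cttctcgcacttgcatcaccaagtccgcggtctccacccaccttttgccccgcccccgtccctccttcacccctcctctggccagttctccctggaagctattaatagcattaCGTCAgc

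Both strands were searched for the full CRE TGACGTCA, the TPA response element TGANTCA, the wider CRE or ATF motif TGACNTCA, which contains the full CRE, and the CRE core TGACG, and the forward strand for the TATA motif TATAAA. The core TGACG was found in 5 of the 8 member windows and in 20.8% of all 32851 start-site windows of the same length. *Fos* held it at positions -129 to -125 and at -66 to -62 relative to the start, the second of which is in the printed stretch, followed by the TATA motif at -33 to -28. *Fosb* held the core at -60 to -56, *Junb* at -106 to -102 and *Batf* at -98 to -94. In *Atf3* it lay on the reverse strand, read as CGTCA at -7 to -3. *Jun* held the wider motif, as TGACATCA at -45 to -38, which 8.83% of all windows hold. No member window held the full CRE (1.79% of all windows) or the TPA response element (7.81%). The TATA motif was present in *Fos*, before the start, and in *Junb* at positions 1 to 6, from the start onward. It was in 8.32% of all windows. These are matches of letters within a short window and do not show binding.

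**Figure D1:**
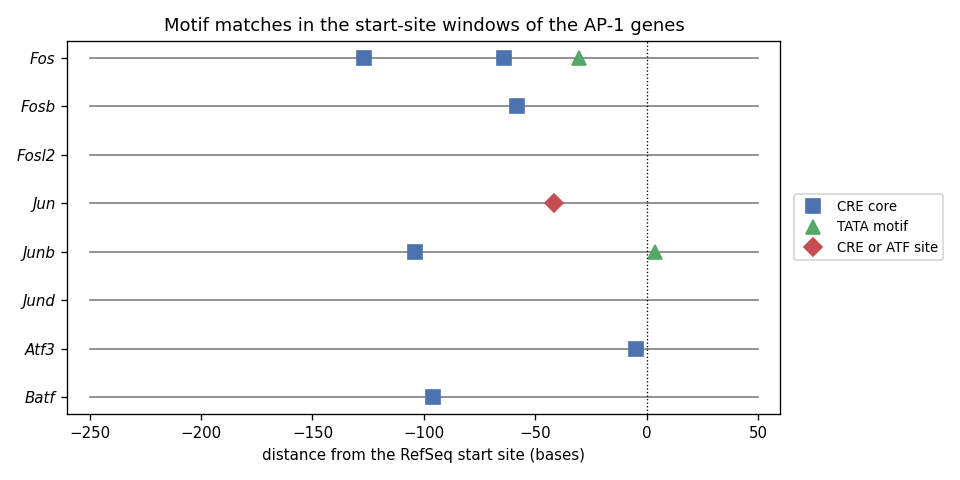
Motif matches in the start-site windows of the 8 AP-1 genes with a RefSeq window, by distance from the start in bases (x axis, 0 at the dotted line), with squares for the CRE core, the diamond for the wider CRE or ATF motif and triangles for the TATA motif. *Fos* holds the CRE core at 2 places and a TATA motif, *Jun* holds the wider motif, and *Fosl2* and *Jund* hold no match.

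Across the arrays, 34.2% to 38.4% of probes were above background, the median signal was 111 to 129, and normalized values of any 2 arrays correlated with r between 0.975 and 0.985 across probes. The replicates numbered 3 had the most probes above background in each group (17369 and 17374), and PTH replicate 3 had the highest mean signal before normalization (429, against 298 to 349 on the others). At a limma adjusted p under 0.05, with the adjustment made over every tested probe, 261 of 16214 probes were called, or 1.61%. Of these, 100 (0.617%) were higher and 161 (0.993%) lower with PTH, whereas scaling to equal medians called 77 higher and 61 lower. All signals are given below as normalized log2 values unless raw signal is named.

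PTH-treated bone tubes had less *Atf3* signal than controls, and *Atf3* was the 1 AP-1 probe of 9 that was called, where 1.61% of all tested probes were called and 0.993% were called lower. *Fos* signal was higher on every PTH array, without passing the adjusted test. The other 7 tested probes, of *Fosb*, *Fosl1*, *Fosl2*, *Jun*, *Junb* and *Batf*, had smaller differences that did not pass. Of the 9 differences, 4 were above and 5 below 0, and their median was -0.09 on the log2 scale, against 0.005 for all genes tested by their brightest probe. All 9 probes were above background on all 6 arrays. In 3 of the 9 the groups did not overlap, as in 20.8% of all probes tested. With 3 arrays per group, an exact permutation test of a single probe cannot give a p below 0.1.

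**Figure D2:**
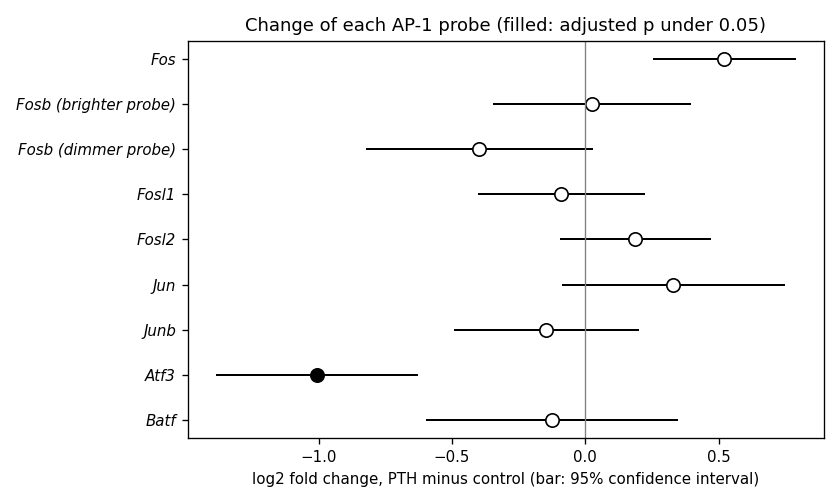
Log2 fold change (PTH minus control, x axis) of each tested AP-1 probe, with its 95% confidence interval from limma as a bar. The interval of *Atf3* lies below 0 and that of *Fos* above 0, and the filled point marks *Atf3* as the probe with an adjusted p under 0.05, while the other 7 intervals include 0.

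*Atf3* signal was 6.72, 6.29 and 6.29 in controls and 5.37, 5.31 and 5.59 with PTH. Every PTH value lay below every control value, and the lowest control exceeded the highest PTH array by more than the spread within either group. The mean fell from 6.43 ± 0.25 to 5.42 ± 0.14 (SD, n = 3). This was 2.01-fold lower with PTH, or -1.01 on the log2 scale with an SE of 0.16 and a 95% confidence interval of -1.38 to -0.63 (limma, adjusted p = 0.0282). In a tissue sample, fewer cells of a type and less RNA per cell cannot be told apart, here and in what follows. Raw signal was 181, 182 and 169 without PTH and 127, 130 and 162 with it. With PTH the detection p was 0.0192, 0.0182 and 0.00214, so the probe was close to background there. The raw groups did not overlap either, but PTH replicate 3, the brightest array, was at 162 against 169 on control replicate 3. The wider gap between these arrays in normalized values therefore depends on the processing.

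The size of the *Atf3* difference depended on the background correction, with -0.39 when the signals were quantile normalized alone and -0.64 with an offset of 50. Leaving out any 1 of the 6 arrays kept the fold change between -1.09 and -0.88 but ended the call (adjusted p = 0.0609 to 0.101), and it also ended with equal medians (-0.89, adjusted p = 0.127) and in the methods' t-test (the same fold change, adjusted p = 0.132).

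Several cell type markers moved with PTH in the same arrays, and their part in the *Atf3* difference was not tested. All 10 neutrophil markers tested, of 12 listed, were below 0 (6 called lower, median log2 fold change -0.74), and their summed linear level went from 55125–55926 in controls to 35396–39952 with PTH. Both red cell markers tested, of 6 listed, were called lower (8614–10056 to 2404–2676). Of 9 osteocyte and osteoblast markers 8 were tested, with *Ibsp* and *Mepe* called lower and a median of -0.95 (26590–28505 to 16681–18632), and *Fgf23* was below background on every array. While 7 of the tested markers were below 0, *Pdpn* was above it (0.70, limma, adjusted p = 0.056) and did not pass. Of 7 osteoclast markers 4 were tested, and *Acp5* (0.84, adjusted p = 0.0372) and *Oscar* (1.05, adjusted p = 0.0297) were called higher (8191–9442 to 10513–13826), while *Calcr*, *Atp6v0d2* and *Ocstamp* were below background on all arrays. The 8 macrophage markers were all tested and had a median of -0.15 (13775–16412 to 13014–15523). Osteocyte, osteoclast and marrow cell markers were therefore all present in tissue labelled as osteocytes in cortical bone. Of 7 B lymphocyte markers 3 were tested and 4 were below background on all arrays, *Cd79a*, *Ms4a1* and *Pax5* among them (summed level 183–242 to 226–297). *Igll1*, of the pre-B cell receptor, was called higher (0.81, adjusted p = 0.0436). It was above background on 1 control and 3 PTH arrays, so it was tested only because of its PTH signal. Its control signal was 4.79, 4.69 and 5.14, close to background, which limits what its difference shows. *Vpreb1* of the same receptor (0.60, adjusted p = 0.224) and *Cd79b* (-0.10, adjusted p = 0.938) did not pass. Of 5 T lymphocyte markers 4 were below background on all arrays.

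*Fos* signal was 8.91, 8.83 and 8.81 in controls and 9.38, 9.32 and 9.41 with PTH. The groups did not overlap, and each spanned only a narrow range. The mean was 8.85 ± 0.05 and 9.37 ± 0.04 (SD, n = 3), a log2 difference of 0.52 (SE 0.11, 95% confidence interval 0.26 to 0.79) or 1.44-fold, which missed the adjusted threshold (limma, adjusted p = 0.0788). Raw signal was 481, 551 and 535 without and 633, 757 and 1051 with PTH, so the highest raw value fell on the brightest array, whereas the normalized values of the PTH arrays lay close together.

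The *Fos* difference passed with quantile normalization alone (0.44, adjusted p = 0.00439), with an offset of 50 (0.0244), among probes with a detection p under 0.01 on all arrays (0.0286) and in the methods' t-test on the same values (0.0436). It did not pass with equal medians (0.68, adjusted p = 0.486) or with a block for the replicate number (0.142). Nor did it pass without the detection filter (0.09) or with cyclic loess (0.0741). It passed in none of the 6 fits that left out 1 array (0.50 to 0.55, adjusted p = 0.148 to 0.223).

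**Figure D3:**
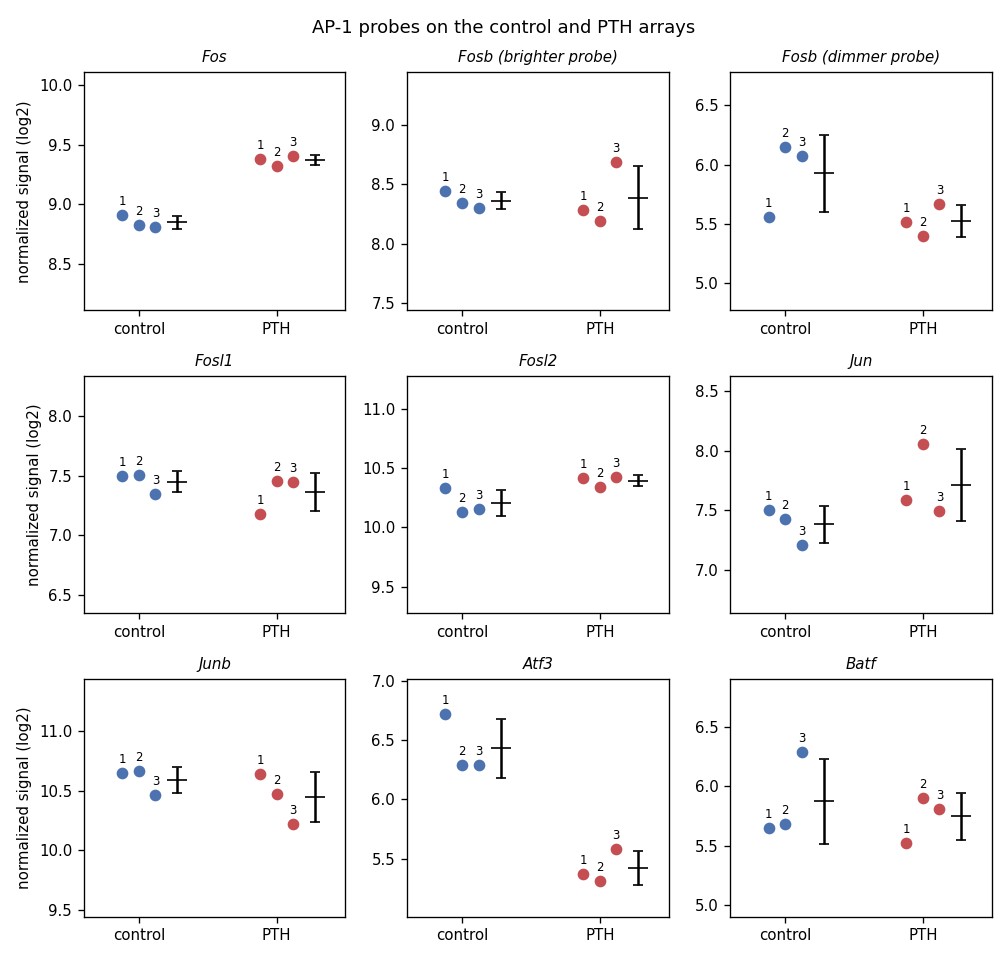
Normalized log2 signal (y axis, a span of 2 log2 units in every panel) of the 9 tested AP-1 probes on the 3 control and 3 PTH arrays, with points numbered by replicate and bars for the mean and SD. The groups are apart for *Fos* (8.81 to 8.91 against 9.32 to 9.41) and *Atf3* (6.29 to 6.72 against 5.31 to 5.59), nearly touch for *Fosl2* and overlap for the others.

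The other FOS genes did not pass. *Fosb*, a paralog of *Fos*, had a brighter and a dimmer probe. The brighter gave 8.44, 8.34 and 8.30 in controls and 8.28, 8.19 and 8.69 with PTH, a log2 difference of 0.03 (SE 0.16, 95% confidence interval -0.34 to 0.39; limma, adjusted p = 0.963). PTH replicate 3 was the highest of the 6 values and the other PTH arrays the lowest, and without it the difference was -0.13. The dimmer gave 5.56, 6.15 and 6.07 in controls and 5.52, 5.40 and 5.67 with PTH, a difference of -0.40 (SE 0.18, 95% confidence interval -0.82 to 0.02; adjusted p = 0.372), with control replicate 1 inside the PTH range. The signal of the brighter probe minus that of the dimmer one on the same array also overlapped between the groups.

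*Fosl1*, which encodes FRA1, was at 7.50, 7.51 and 7.35 in controls and 7.18, 7.45 and 7.45 with PTH, a log2 difference of -0.09 (SE 0.13, 95% confidence interval -0.40 to 0.22; limma, adjusted p = 0.821). *Fosl2*, which encodes FRA2, was at 10.33, 10.13 and 10.15 in controls and 10.42, 10.34 and 10.42 with PTH, a difference of 0.19 (SE 0.12, 95% confidence interval -0.09 to 0.47; adjusted p = 0.542). The groups did not overlap for *Fosl2*, but control replicate 1 lay next to PTH replicate 2. The other 2 *Fosl2* probes were above background on no array and give no value.

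Among the JUN genes, *Jun*, the main partner of FOS proteins, was at 7.51, 7.43 and 7.21 in controls and 7.59, 8.06 and 7.49 with PTH. PTH replicate 2 was the highest and PTH replicate 3 lay within the control range. The log2 difference was 0.33 (SE 0.18, 95% confidence interval -0.08 to 0.75; limma, adjusted p = 0.454). *Junb*, whose product can oppose JUN at some targets, was at 10.65, 10.66 and 10.46 in controls and 10.64, 10.47 and 10.22 with PTH, a difference of -0.15 (SE 0.15, 95% confidence interval -0.49 to 0.20; adjusted p = 0.719). Its second probe was above background on no array. The single *Jund* probe was above background only on control replicate 3 and PTH replicate 3, the arrays with the most probes above background, with raw signals of 117, 123 and 124 in controls and 120, 112 and 166 with PTH. It was therefore not tested, and no fold change is given. *Batf* was at 5.65, 5.68 and 6.28 in controls and 5.52, 5.90 and 5.81 with PTH, a difference of -0.13 (SE 0.20, 95% confidence interval -0.59 to 0.34; adjusted p = 0.836), and its groups overlapped.

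The intervals show what 3 arrays per group leave possible. For *Fosl1*, *Fosl2* and *Junb* they reach no farther from 0 than -0.49 log2 units. For *Jun*, *Batf* and the dimmer *Fosb* probe they extend to 0.75, -0.59 and -0.82, beyond the size of the *Fos* difference.

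Differences between members on the same array were compared next, since a scaling factor of the array cancels in them. Only the shift of such a difference between the groups is read, because the levels of different probes are not comparable. Of the 28 pairs of the 8 tested genes, each by its brightest probe, 16 did not overlap between the groups, where 21.7% of all pairs of tested genes did not overlap. All 7 pairs with *Atf3* and 6 of the 7 pairs with *Fos* were among them, the exception being *Fos* with *Jun*. The groups were already apart for *Atf3* and for *Fos*, so these pairs largely repeat the differences given above. They add no separate support, and the count of 16 is not read against the share of all pairs. *Fos* minus *Atf3* was 2.20, 2.54 and 2.52 in controls and 4.01, 4.01 and 3.82 with PTH, a shift of 1.53 log2 units (exact permutation test, two-sided, p = 0.1, the smallest it can give).

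Of the 15 pairs without *Fos* or *Atf3*, 4 did not overlap, a share near that of all pairs, and nothing is read from them. *Fos* minus *Jun* shifted by 0.19, with overlap, so these arrays do not separate the changes of this pair. The pairs share genes and are not independent of each other.

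**Figure D4:**
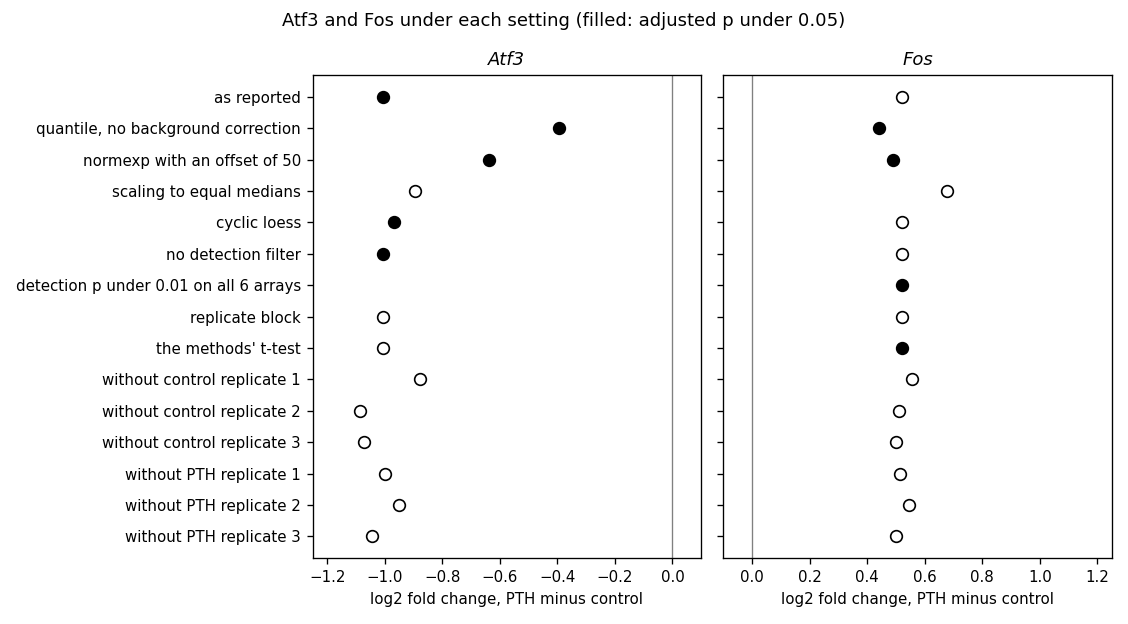
Log2 fold change (PTH minus control, x axis) of *Atf3* and *Fos* under each processing setting and with each array left out, filled where the adjusted p was under 0.05. *Atf3* stays between -1.09 and -0.39 and *Fos* between 0.44 and 0.68, on the same side of 0 in every fit, and no fit that leaves out an array has a filled point. *Atf3* was not tested under the detection p limit of 0.01.

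Genes around AP-1 were read from fixed lists, each gene by its brightest tested probe, of which 1.73% were called over the whole array (207 of 11979). Among basic leucine zipper factors that pair with AP-1 subunits, 8 of 12 were tested and 0 passed in limma (2 had an unadjusted p under 0.05, and the methods' t-test called 0), with a median of -0.05. *Batf3*, a close relative of *Batf* listed under an older name, was above background on all 3 control arrays and on no PTH array. It was therefore tested only because of its control signal and did not pass (adjusted p = 0.0866), with a control signal at least 1.39-fold above that with PTH, a bound that takes the dimmest probe above background on each PTH array in place of its own signal. *Jdp2*, which encodes a repressor that pairs with JUN proteins, differed by 0.56 (adjusted p = 0.18) and *Maff* by 0.33 (0.572).

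Of 30 kinases and regulators upstream of AP-1, 22 were tested and 0 passed in limma (4 had an unadjusted p under 0.05, and the methods' t-test called 0), with a median of 0.06. *Mapk8*, which encodes the JUN kinase JNK1, differed by 0.60 (adjusted p = 0.116), *Map2k1*, which encodes MEK1, by 0.46 (0.21), *Map2k5* by -0.40 (0.25) and *Map3k7*, which encodes TAK1, by 0.39 (0.308). *Map3k7* was above background on 1 control and 3 PTH arrays, so it was tested only because of its PTH signal. The mRNA of a kinase does not report its activity.

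Of 25 other immediate-early genes, 19 were tested, 1 rose and 1 fell, with a median of -0.14. *Rgs2*, a regulator of G protein signaling that cAMP is known to induce, was at 4.61, 4.89 and 5.00 in controls and 6.22, 6.62 and 6.31 with PTH, and rose by 1.55 on the log2 scale (SE 0.16; limma, adjusted p = 0.00578). It was above background on 1 control and 3 PTH arrays, so it was tested only because of its PTH signal, and with each control array at no less than its dimmest signal above background the difference was 1.33. The log2 fold change was 0.56 with quantile normalization alone, and it did not pass in the methods' t-test (0.0705). *Egr3*, a zinc finger factor, fell from 9.60, 9.51 and 9.56 to 8.93, 8.81 and 8.97 (-0.65, SE 0.12; adjusted p = 0.0405), but did not pass without any 1 of the 6 arrays (0.074 to 0.151) or with equal medians (-0.48, adjusted p = 0.878). *Dusp1*, which encodes a MAP kinase phosphatase, differed by 0.65 (adjusted p = 0.0545), *Klf2* by -0.94 (0.108), *Egr2* by -0.56 (0.173) and *Gadd45b* by -0.46 (0.197).

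The list of known AP-1 target genes had 22 of 25 genes tested, 2 higher, 1 lower and a median of 0.12. *Il11*, a cytokine of the IL-6 family made by bone cells, rose from 12.69, 12.76 and 12.61 to 13.52, 13.73 and 13.69 (0.97 on the log2 scale, SE 0.12; limma, adjusted p = 0.0123). *Mmp9*, a gelatinase of osteoclasts and neutrophils, rose from 11.74, 11.88 and 11.96 to 12.47, 12.56 and 12.75 (0.73, SE 0.13; adjusted p = 0.0433). *Ibsp*, which encodes bone sialoprotein and is also on the osteoblast marker list, fell from 12.56, 12.51 and 12.50 to 10.55, 10.53 and 10.47 (-2.01, SE 0.11; adjusted p = 0.000747), and all 3 of its probes were called. *Mmp9* did not pass in any fit without 1 array (adjusted p = 0.0851 to 0.157), without the detection filter (0.0602), with equal medians (0.134) or in the methods' t-test (0.107), and *Il11* did not pass without control replicate 1 (0.0657) or PTH replicate 2 (0.0592).

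*Mmp13*, the collagenase gene that PTH is known to induce through AP-1, is given although it was chosen after its values were seen. It was at 15.32, 15.34 and 15.32 in controls and 15.08, 15.21 and 15.08 with PTH, a difference of -0.21 (adjusted p = 0.468). This probe ranked 6 to 17 from the brightest on every array, and whether quantile normalization limited its difference was not tested. Its other 2 probes differed by -0.36 (adjusted p = 0.349, ranks 877 to 1400) and 0.20 (adjusted p = 0.703, ranks 7770 to 10207). Of the other targets, *Ccl2* differed by -0.85 (adjusted p = 0.175), *Hmox1* by -0.67 (0.176), *Plaur* by 0.42 (0.288) and *Vegfa* by 0.42 (0.223).

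Heat shock genes, which like *Atf3* respond to stress, had 5 of 7 tested and 0 called in limma (1 had an unadjusted p under 0.05, and the methods' t-test called 1), and all 5 differences were above 0 with a median of 0.20. *Hspa8*, the constitutive chaperone, differed by 0.51 (adjusted p = 0.0816), *Hspb1* by 0.46 (0.437), *Hsp90aa1* by 0.20 (0.562) and *Dnajb1* by 0.18 (0.596).

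**Figure D5:**
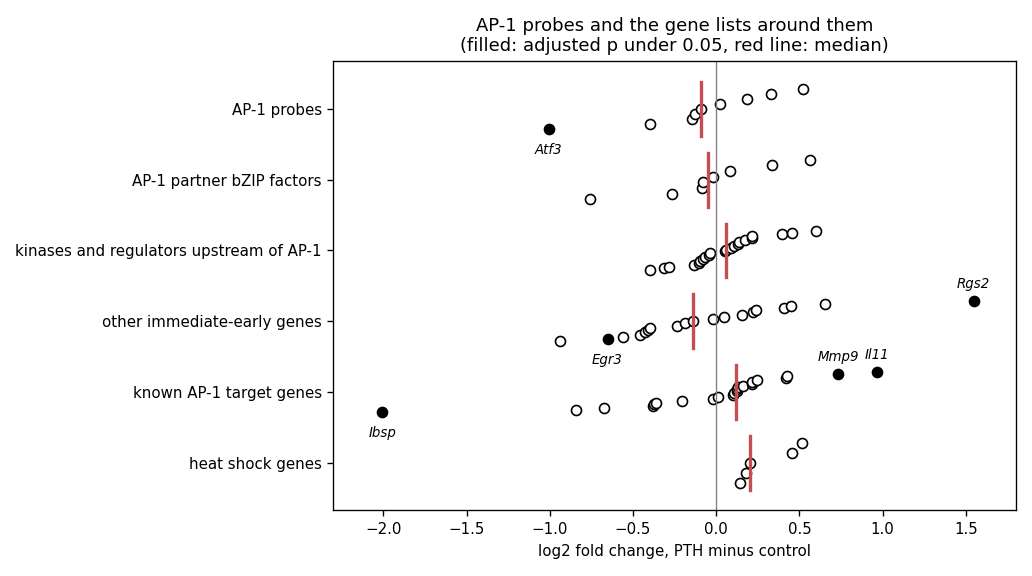
Log2 fold change (PTH minus control, x axis) of the AP-1 probes and of the tested genes of each list, 1 point per probe or gene, spread vertically by rank, filled where the adjusted p was under 0.05, with the median of each row as a red line. The medians lie between -0.14 and 0.20, and the filled points are *Atf3*, *Egr3*, *Rgs2*, *Ibsp*, *Mmp9* and *Il11*.

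*Atf3*, the member with the smallest p, was compared with all 11971 other genes over the 6 arrays. The highest Pearson correlations were those of *Mthfd2* (0.991), a mitochondrial folate enzyme, *Tcfcp2l2* (0.989), *Nme7* (0.988), *D330024H06Rik* (0.986) and *Pkib* (0.986), an inhibitor of the cAMP-dependent kinase. These values describe 6 arrays in 2 groups, so a high correlation mainly means that the gene was lower on the PTH arrays and ordered like *Atf3* within a group. *Pkib* (log2 fold change -1.04, adjusted p = 0.0328) and *D330024H06Rik* (-0.73, adjusted p = 0.0338) were called lower, with *Pkib* above background on 3 control and 2 PTH arrays. *Mthfd2* (-0.24) and *Nme7* (-0.47) did not pass. *Tcfcp2l2* was above background on 3 control arrays and on no PTH array, so its correlation rests in part on values below background and no difference is given.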

How the data were processed

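The authors deposited, for each of 6 arrays, the linear signal intensity of 45281 probes, not normalized, and beside it a deposited detection p-value against the negative control probes of the same array. Per the labels, GenomeStudio produced them, and its version is not given in the sources used here. All 6 signal columns were used and 0 columns were left out. The authors' quantile-normalized values and differential scores were not used here.

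Signals were background corrected through the detection p-values, given an offset of 16, quantile normalized and taken to log2 with neqc in limma 3.58.1 (R 4.3.3). Probes with a detection p under 0.05 on 3 or more arrays entered the test. The PTH effect was fitted with lmFit and eBayes, p-values were adjusted over these probes by the method of Benjamini and Hochberg, and a probe was called at an adjusted p under 0.05. Intervals are limma's at 95%. The number of arrays limits the precision. The procedure was tested on simulated data.

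Named are all AP-1 probes, from each gene list the called genes and otherwise the 4 largest differences (some items are not reported here), and the 5 genes most correlated with the member of smallest p. Members, gene lists and markers were chosen with earlier results of these data known, so their counts are descriptions. Alternatives were quantile normalization alone, an offset of 50, equal medians, cyclic loess, no detection filter, a stricter one (p under 0.01 on each of 6 arrays), a block for the replicate number, fits without 1 array, the methods' t-test and, for lists, the mean of all probes of a gene. The methods' t-test is Student's t-test on the normalized values used here, with the same adjustment. It is not the differential score by which the study called its arrays. Symbols are those of the array, matched to older names in RefSeq (GRCm38.p6). The build of the array's probes is not given in the sources used here, and probe sequences were not used.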

Additional observations from a re-analysis of the deposited data

How the results depend on the processing

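Of the 123 member values under alternatives, 104 kept their direction and side of the threshold, 9 kept the direction without passing (all *Atf3*), 4 newly passed (all *Fos*) and 6 changed sign. Those 6 lay close to 0. With equal medians *Fosl1* was at 0.0199 and *Junb* at 0.00615. With an array left out, *Fosb* (brighter probe) ranged from -0.129 to 0.122 and was also below 0 at -0.00435, *Fosl1* ranged from -0.142 to 0.00069 and *Batf* from -0.238 to 0.0808. Equal medians moved the median of all probes to 0.11, relative to which *Fos* was at 0.56 and *Atf3* at -1.01.

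The AP-1 probes called, 1 as reported, were 2 with quantile normalization alone, 2 with an offset of 50, 0 with equal medians, 0 with the replicate block and 0 to 0 with an array left out. Of all probes, 261 as reported, these settings called 725, 510, 138, 64 and 72 to 127, a detection p under 0.01 on all arrays 422 of 11294, and the methods' t-test 117. Other immediate-early genes, 2 as reported, were 5 with quantile normalization alone, 4 with an offset of 50, and 1 each with equal medians, the replicate block, the methods' t-test and any array left out (1 to 1). Known targets, 3 as reported, were 6 with quantile normalization alone, 1 with the replicate block and 1 to 2 with an array left out. Partner factors, 0 as reported, were 1 with quantile normalization alone. Heat shock genes, 0 as reported, were 1 with quantile normalization alone, 1 with an offset of 50, 1 with a detection p under 0.01 and 1 in the methods' t-test. Upstream genes stayed at 0 in every setting. Pairs of members that did not overlap were 15 to 19 of 28. The cause of these shifts was not tested, except that stricter detection tests fewer probes and that a left-out array leaves fewer samples.

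Controls and PTH arrays share replicate numbers, and the labels do not say whether same-numbered arrays belong together. Same-numbered arrays deviated together with r of 0.067, 0.0636 and 0.273, and control replicate 1 correlated best with PTH replicate 2 (0.073). The replicates numbered 3 correlated below 0 with the remaining arrays of the other group (-0.142 to -0.134). Deviations were taken from the group mean and sum to 0 in each group. The negative values therefore largely follow from the 0.273 and add no separate information. The normalized values of the replicates numbered 3 correlated at 0.984, against 0.975 to 0.979 for the other pairs across groups. Whether these arrays share a batch was not tested. With the replicate block *Atf3* had an adjusted p of 0.0851, and *Egr3* (0.0962), *Mmp9* (0.0779) and *Il11* (0.0568) did not pass. A slide block was not run because neither labels nor columns name slides. Signal over background limits *Atf3*, *Batf*, *Rgs2*, *Igll1*, *Map3k7* and the dimmer *Fosb* probe, and leaves *Jund* without a test.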
